A study of Mus musculus with 4 samples.

Results

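The genes described here are 45 genes of the lysosome: its degradative enzymes and their helper proteins, its membrane proteins, the proton pump (the vacuolar ATPase, V-ATPase) that acidifies it, and the transcription factors of the MiT/TFE family. They were chosen by name and by known function, without a threshold on any value, but with earlier results of these data known. All were found among the 27179 genes of the deposited count table. All 45 had enough counts to be tested. The RNA came from plasmacytoid dendritic cells (pDCs) of C57BL/6 mice, which were derived in culture from bone marrow precursors with Flt3 ligand for 8 days and then exposed for 24 h to imiquimod (IMQ) at 1 µg/ml, an agonist of the endosomal receptor TLR7. The sort was on SiglecH and CD11b, with a further division by the fluorescence of BFP, a blue reporter of the chemokine gene Cxcl10. There were 2 BFP-positive and 2 BFP-negative libraries. Both groups came from stimulated cultures, no unstimulated library was analysed here, and the labels do not say whether cells high or low in CD11b were kept. The labels call the BFP-negative population CXCL10-positive whereas the design text calls it CXCL10-negative, so groups follow the BFP status in the titles. Nothing in the labels says whether the libraries of a group came from separate animals, so a p-value measures only the spread between these libraries, which may be technical.

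Lysosomes are acidic organelles in which proteins, glycans, lipids and nucleic acids are broken down. The V-ATPase pumps protons inward and keeps the low pH that the hydrolases need, and factors such as Tfeb are known to switch on many lysosomal genes together through an E-box sequence in their promoters. In pDCs, the receptors for viral nucleic acids, TLR7 among them, signal from acidified endosomes and lysosomes, and imiquimod itself acts there.

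Depth was even, with 11868254 to 12570117 counts per library and TMM scaling factors (which correct for a few dominant genes) of 0.973 to 1.04. The 45 genes held 1.19% and 1.204% of all counts in the BFP-negative libraries and 1.30% and 1.37% in the BFP-positive ones. All 12 pDC marker genes checked were detected in every library. The reporter's own gene, Cxcl10, had 3 and 19 counts in BFP-negative and 149 and 154 in BFP-positive libraries, in the direction of the BFP labels. Levels are given in CPM, which puts libraries of different depth on 1 scale, here with TMM factors, for replicates 1 and 2 in that order. Fold changes set BFP-positive against BFP-negative libraries and come from edgeR's quasi-likelihood test on all 11706 genes with enough counts, with the standard error (SE). A gene is said to rise or fall where its p, adjusted by Benjamini-Hochberg over all those genes, was under 0.05.

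The lysosomal genes did not move as a block. Of the 45 genes, 6 rose in BFP-positive cells (Gm2a, Hexa, Psap, Npc2, Man2b1 and Arsb), 2 fell (Gaa and Neu1) and 37 did not pass the test. The share that rose, 13.3%, compares with 7.60% of all genes tested, and the share that fell, 4.44%, with 3.51%. All 8 genes that passed encode soluble proteins of the lysosomal lumen. Among the 22 soluble members 6 rose and 2 fell. In edgeR, 0 of 6 membrane proteins, 0 of 14 V-ATPase genes and 0 of 3 transcription factors passed. At an unadjusted p under 0.05 these last 3 groups had 1, 2 and 0 genes, and DESeq2 and limma-voom each called 0, 1 and 0. Over all 11706 genes DESeq2 called 1036 higher and 561 lower, and limma-voom 918 and 453. The share of all genes at an unadjusted p under 0.05 is not given here, so those counts have no background beside them. Of all genes tested 11.1% passed in edgeR, a share at which groups this small would hold few calls. Whether the soluble members differed from these groups was not tested. The median log2 fold change was 0.02 over the 45 genes and -0.02 over all genes tested. Groups stood apart, without overlap, for 19 of the 45 genes (42.2%), compared with 54.2% of all genes tested. In 12 of them the BFP-positive values were above and in 7 below, where the share among all genes tested was 27.1% each way. The summed level of the 45 genes was 11470 and 11940 CPM in BFP-negative cells and 13240 and 14080 CPM in BFP-positive cells. Most of that gap lay in the group of lipid hydrolases, their activators and the sterol carrier. Its sums were 2527, 2631, 3963 and 4861 CPM in the same order. Within this group 3 genes rose and 5 did not pass. Mean levels went from 1127 to 2021 CPM for Psap, from 327 to 912 CPM for Gm2a and from 514 to 821 CPM for Npc2. BFP-positive Psap was uneven, at 1647 and 2394 CPM. The V-ATPase sums were 6002, 6016, 6206 and 5994 CPM. Because these are sorted bulk samples, a larger share of cells that express a gene and more RNA per cell cannot be told apart.

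**Figure D1:**
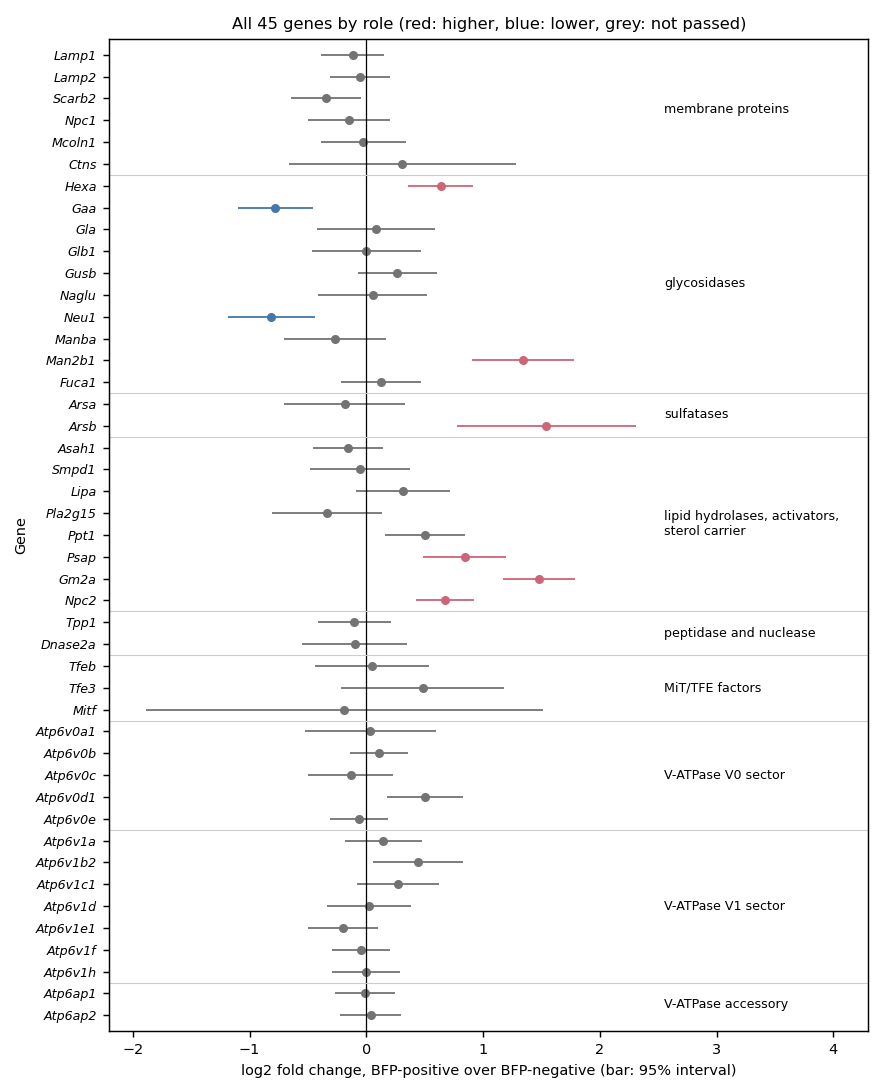
Log2 fold change of each of the 45 genes (point, x axis) with its 95% interval (bar) from edgeR, genes on the y axis grouped by role; red marks genes that rose, blue genes that fell and grey genes that did not pass. The 8 coloured genes all lie in the enzyme, activator and sterol-carrier groups, and every V-ATPase interval lies between -0.53 and 0.83.

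The MiT/TFE factors bind E-boxes of lysosomal and autophagy genes and are themselves regulated mainly by their entry into the nucleus, which transcript levels do not show. Tfeb was at 50.3 and 78.4 CPM in BFP-negative and 63.8 and 69.3 CPM in BFP-positive libraries, with overlapping groups. Its log2 fold change was 0.05 (SE 0.22, 95% interval -0.44 to 0.54). Tfe3 was at 13.18 and 22.5 CPM against 22.1 and 27.8 CPM, and its log2 fold change of 0.48 (SE 0.31) did not pass the test (edgeR adjusted p = 0.390). Mitf was close to the detection limit with 26 and 32 counts against 28 and 20, so that its interval of -1.89 to 1.51 leaves large differences in either direction undetectable at this depth. Per length, Tfeb was the highest of the 3 factors, at a mean authors' log2 RPKM of 4.51 compared with 2.66 for Tfe3 and -1.27 for Mitf.

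RefSeq promoters (250 bases before to 50 bases after an annotated start, assembly GRCm38.p6) were given for 40 of the 45 genes. The E-box core CACGTG, a palindrome that reads the same on both strands, was present in the promoters of 11 of these 40 genes (27.5%), compared with 8.09% of the 27025 genes of the promoter table and 12% of the genes tested here that had a promoter. The 11 genes were Lamp1, Mcoln1, Gla, Glb1, Naglu, Gaa, Arsa, Atp6v0b, Atp6v0d1, Atp6v0e and Atp6v1a. Of them Gaa fell and the other 10 did not pass the test, so the core was present in 1 of the 8 genes that passed and in 10 of the 32 others. The longer TCACGTGA, which contains the core, was present in 5 of the 40 genes, compared with 1.12% of all genes of the table and 2.35% of those tested, and in 0 of the genes that passed. The 10-base CLEAR consensus, which extends it by 1 base on each side, was present in 0 of the 40 genes and 0.370% of all (0.866% of those tested). TCATGTGA, searched on both strands and not overlapping the core, was present in 4 of the 40 (Atp6v0c, Gla, Ppt1 and Tpp1), compared with 1.15% of all genes of the table and 0.933% of those tested. A match is a description of the letters in this window, and its absence says nothing of the factor.

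Stretches directly before the start are shown for the genes with the most cores (Lamp1 with 4, then Mcoln1, Atp6v0b and Gla with 2 each), for Gaa as the gene that holds a core and fell, and for Gm2a, the member with the smallest p, as one without. They were picked after the motifs and values were known. Capitals mark CACGTG, all are written 5′ to 3′ along the gene, and each ends at the base before the start, except that of Gla, which runs from 250 to 161 bases before it.
Lamp1, chr8:13159071-13159160, plus strand: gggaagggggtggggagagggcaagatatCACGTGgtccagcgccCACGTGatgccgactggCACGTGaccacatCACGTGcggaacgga
Mcoln1, chr8:3500429-3500518, plus strand: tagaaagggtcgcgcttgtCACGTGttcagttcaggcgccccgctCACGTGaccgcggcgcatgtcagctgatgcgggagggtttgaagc
Atp6v0b, chr4:117887330-117887419, minus strand: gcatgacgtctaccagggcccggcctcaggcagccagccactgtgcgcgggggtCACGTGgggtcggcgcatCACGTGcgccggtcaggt
Gla, chrX:134601166-134601255, minus strand: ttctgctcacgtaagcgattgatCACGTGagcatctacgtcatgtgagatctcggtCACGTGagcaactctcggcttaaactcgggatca
Gaa, chr11:119267803-119267962, plus strand: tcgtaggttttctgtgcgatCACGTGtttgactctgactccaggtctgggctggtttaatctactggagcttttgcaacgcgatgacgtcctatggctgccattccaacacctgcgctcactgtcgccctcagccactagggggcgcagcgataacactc
Gm2a, chr11:55097895-55097984, plus strand: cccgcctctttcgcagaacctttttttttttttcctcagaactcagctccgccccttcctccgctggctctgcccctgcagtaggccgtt
The 4 cores of Lamp1 begin 61, 45, 28 and 15 bases before the start, whereas the single core of Gaa begins 140 bases before it. Lamp1, with most cores, was at 701 and 806 CPM in BFP-negative and 667 and 723 CPM in BFP-positive libraries, with overlapping groups (change of -0.12 on the log2 scale, 95% interval -0.39 to 0.15).

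**Figure D2:**
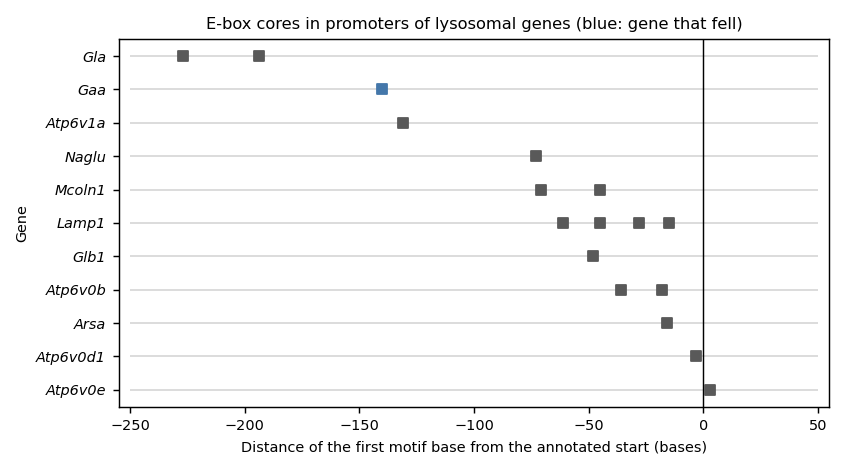
Position of each E-box core (square) relative to the annotated start (x axis, bases; 0 is the start and negative values lie before it) in the 11 lysosomal genes whose promoter holds one (y axis). Blue marks Gaa, which fell, and grey marks genes that did not pass the test; Lamp1 carries 4 cores within 61 bases of its start.

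Gm2a encodes the GM2 activator, a small protein that lifts the ganglioside GM2 out of the membrane for cleavage, and Hexa encodes the alpha subunit of the hexosaminidase that cleaves it. Gm2a (Entrez gene 14667, chromosome 11, 55097985 to 55113029 on GRCm38) was at 291 and 364 CPM in BFP-negative and 863 and 961 CPM in BFP-positive libraries. Every BFP-positive value lay above every BFP-negative value, and the rise was 2.79-fold, from 327 ± 51.7 to 912 ± 69.7 CPM (mean ± SD, n = 2; log2 fold change 1.48, SE 0.14, edgeR adjusted p = 0.000127). Hexa (Entrez gene 15211, chromosome 9, 59539540 to 59565109) was at 254 and 291 CPM against 422 and 428 CPM, again without overlap. It rose 1.56-fold, from 273 ± 25.9 to 425 ± 4.34 CPM (SD, n = 2; log2 fold change 0.64, SE 0.12, edgeR adjusted p = 0.00909). Per length, the mean log2 RPKM was 7.51 for Hexa and 6.997 for Gm2a. Hexa shares 12.8% of its exon bases with Tmem202 on the opposite strand, which had no more than 4 counts in any library.

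Psap encodes prosaposin, which is cut into the saposins that present sphingolipids to several lysosomal enzymes. It was the most abundant of the 31 members outside the V-ATPase per length (mean log2 RPKM 9.10). Psap (Entrez gene 19156, chromosome 10, 60277628 to 60302600) was at 1077 and 1178 CPM in BFP-negative libraries, which were close together, and at 1647 and 2394 CPM in BFP-positive libraries, which were not. The rise was 1.79-fold, from 1127 ± 71.0 to 2021 ± 528 CPM (SD, n = 2; log2 fold change 0.84, SE 0.16, edgeR adjusted p = 0.00793). Without BFP-positive replicate 2 it was 0.55 and did not pass (edgeR adjusted p = 0.0511). Enzymes that work with saposins did not pass the test: Asah1, the acid ceramidase, was at 239.5 and 228 CPM against 224 and 195 CPM. Smpd1, the acid sphingomyelinase, was at 51.4 and 46.7 CPM against 50.8 and 43.8 CPM. Arsa, the sulfatase that removes sulfate from sulfatide, was at 29.4 and 32.7 CPM against 30.4 and 24.3 CPM. The 95% intervals of Asah1, Smpd1 and Arsa were -0.45 to 0.14, -0.48 to 0.38 and -0.71 to 0.33 on the log2 scale. Whether Psap differed in its change from these enzymes was not tested.

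**Figure D3:**
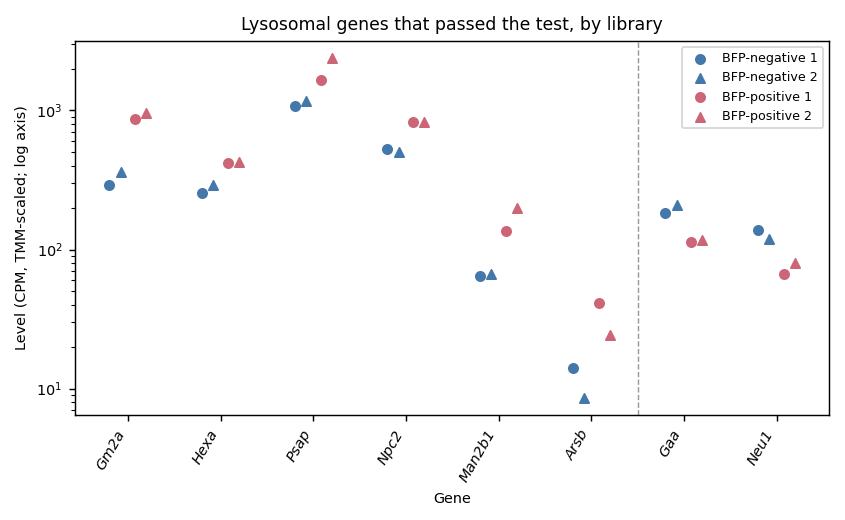
Level of the 8 lysosomal genes that passed the test (x axis) in each library (y axis, TMM-scaled CPM, log axis); blue marks BFP-negative and red BFP-positive libraries, circles replicate 1 and triangles replicate 2, and the dashed line separates genes that rose from genes that fell. In each of the 8 genes the blue and red points do not overlap, which also held for 54.2% of all genes tested. These 8 were picked by the test on the same values, so this separation adds no evidence. BFP-positive Psap lies at 1647 and 2394 CPM.

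Npc2 and Npc1 act in sequence in cholesterol export: Npc2 is the soluble carrier that takes up cholesterol in the lumen, and Npc1 is the membrane protein that receives it. Npc2 (Entrez gene 67963, chromosome 12, 84754559 to 84773112) was at 525 and 503 CPM in BFP-negative and 823 and 819.9 CPM in BFP-positive libraries. Replicates were tight in both groups, and Npc2 rose 1.60-fold, from 514 ± 15.6 to 821 ± 1.84 CPM (SD, n = 2; log2 fold change 0.68, SE 0.11, edgeR adjusted p = 0.00367). Npc1 was at 119.7 and 123 CPM against 98.95 and 121 CPM and did not pass, with a 95% interval of -0.50 to 0.21 around a log2 fold change of -0.14. Lipa, the acid lipase that frees cholesterol from its esters, was at 123 and 98.4 CPM against 119 and 157 CPM with overlapping groups (log2 fold change 0.31, SE 0.18). Ppt1, a thioesterase that removes fatty acids from proteins, was at 159 and 133 CPM against 188 and 226 CPM. Its groups did not overlap but the gene did not pass (log2 fold change 0.50, SE 0.15, edgeR adjusted p = 0.0665); it did without BFP-negative replicate 1 (0.64, edgeR adjusted p = 0.0313) and in DESeq2 (0.51, adjusted p = 0.0173). The phospholipase gene Pla2g15 was at 61.7 and 81.0 CPM against 48.5 and 64.5 CPM and did not pass (log2 fold change -0.34, SE 0.21).

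The 10 glycosidases, which trim sugars from glycoproteins and glycolipids, split, with 2 that rose (Hexa and Man2b1), 2 that fell (Gaa and Neu1) and 6 that did not pass. Man2b1, the acid alpha-mannosidase of N-glycan breakdown, lies on chromosome 8, 85082730 to 85098739 (Entrez gene 17159). Its levels were 65.0 and 67.3 CPM in BFP-negative and 135 and 200.4 CPM in BFP-positive libraries. The rise of 2.54-fold (log2 fold change 1.34, SE 0.20, edgeR adjusted p = 0.00185) was larger than the spread of the BFP-positive pair. Manba, the beta-mannosidase that acts on the same glycans, was at 47.5 ± 3.54 CPM against 39.5 ± 3.19 CPM (SD, n = 2) and did not pass (log2 fold change -0.26, SE 0.20).

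Gaa, the acid alpha-glucosidase that degrades glycogen in lysosomes, fell 1.72-fold. Gaa (Entrez gene 14387, chromosome 11, 119267963 to 119285458) was at 184 and 211 CPM in BFP-negative and 113 and 117 CPM in BFP-positive libraries (log2 fold change -0.78, SE 0.14, edgeR adjusted p = 0.00673). Neu1, the sialidase that removes terminal sialic acid, fell 1.76-fold. Neu1 (Entrez gene 18010, chromosome 17, 34931253 to 34937297) was at 139 and 119 CPM against 67.0 and 80.1 CPM (log2 fold change -0.81, SE 0.17, edgeR adjusted p = 0.0117). Omitting BFP-positive replicate 1 ended the call of Neu1, where the log2 fold change was -0.69 (edgeR adjusted p = 0.0750). Neu1 is known to work in a complex with the beta-galactosidase Glb1 and the protective protein Ctsa, and the 3 genes did not share a direction. Glb1 was at 39.7 and 38.5 CPM against 43.5 and 34.7 CPM, and the 95% interval of its log2 fold change was -0.46 to 0.47. Ctsa, from outside the 45 genes, was at 264 and 284 CPM against 503 and 529 CPM and rose (log2 fold change 0.91, SE 0.12, edgeR adjusted p = 0.000939). The other 4 glycosidases did not pass and had log2 fold changes of 0.06 (Naglu, of heparan sulfate breakdown), 0.09 (Gla, the alpha-galactosidase), 0.13 (Fuca1, the alpha-fucosidase) and 0.27 (Gusb, the beta-glucuronidase). Of these Fuca1 was the most abundant per length, at a mean log2 RPKM of 6.55 and at 197 and 259 CPM against 259 and 239 CPM.

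Of the sulfatases, Arsb, which removes sulfate from dermatan and chondroitin sulfate, rose, and Arsa did not pass. Arsb (Entrez gene 11881, chromosome 13, 93771679 to 93943016) was at 13.98 and 8.60 CPM in BFP-negative and 41.3 and 24.5 CPM in BFP-positive libraries, with no overlap but the widest relative spread among the 8 genes that passed. The rise was 2.91-fold (log2 fold change 1.54, SE 0.35, edgeR adjusted p = 0.0179). It was the largest fold among the 45 genes and rested on 109 to 481 counts per library. The call was lost without BFP-positive replicate 1 (1.12, edgeR adjusted p = 0.106) and when limma was run on the authors' log2 RPKM values (1.47, adjusted p = 0.0666). In the GENCODE annotation 32.3% of the exon bases of Arsb are shared with Gm26527, a non-coding gene on the opposite strand, and these libraries do not mark strand, so reads of the pair cannot be told apart there.

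The peptidase Tpp1 and the acid nuclease Dnase2a, which digests DNA delivered to lysosomes, did not pass. Tpp1 was at 178 and 213 CPM against 184 and 179.5 CPM, and Dnase2a at 61.8 and 78.5 CPM against 56.6 and 74.3 CPM. Their log2 fold changes were both -0.10, with 95% intervals of -0.42 to 0.21 and -0.55 to 0.35. At an unadjusted p under 0.05 the count was 0 of 2, and DESeq2 and limma-voom called 0.

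Of the 6 membrane proteins of the lysosome 0 passed in edgeR, where 11.1% of all genes tested did. Lamp1 and Lamp2, the heavily glycosylated proteins that line the lysosomal membrane, were the most abundant of the 6 per length, with mean log2 RPKM of 8.32 and 6.49. Lamp2 was at 376 and 379 CPM in BFP-negative and 364 and 363 CPM in BFP-positive libraries (log2 fold change -0.06, 95% interval -0.31 to 0.20). Scarb2, another protein of that membrane, was at 179 and 195 CPM against 147 and 148 CPM. Its groups did not overlap, but with a log2 fold change of -0.35 (SE 0.14) it did not pass (edgeR adjusted p = 0.142). The calcium channel gene Mcoln1 was at 84.1 and 80.4 CPM against 86.5 and 75.2 CPM. The cystine transporter gene Ctns varied most between replicates, at 8.28 and 21.6 CPM against 14.4 and 22.6 CPM, so its 95% interval of -0.66 to 1.28 does not exclude a doubling.

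The V-ATPase has a membrane sector, V0, through which protons pass, and a cytosolic sector, V1, that hydrolyses ATP. Of its 14 genes here 0 passed in edgeR, compared with 11.1% of all genes tested. Their median log2 fold change was 0.03, and all 14 of the 95% intervals lay inside -1 to 1, 11 of them inside -0.6 to 0.6. Atp6v0e, a small V0 subunit, was the most abundant of the 45 genes per length (mean log2 RPKM 11.30). It was at 2123 and 2006 CPM in BFP-negative and 2120 and 1831 CPM in BFP-positive libraries, with overlapping groups and an interval of -0.31 to 0.18. Atp6v0b and Atp6v0c encode proteolipids of the proton-carrying ring. Atp6v0b was at 702 and 678 CPM against 762 and 724 CPM (log2 fold change 0.11, SE 0.11), and Atp6v0c at 186 and 246 CPM against 181.5 and 212 CPM (log2 fold change -0.13, SE 0.16). Annotated pseudogenes of Atp6v0c exist, so its counts may be shared with those copies and its value is uncertain.

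Atp6v0d1, the V0 subunit that links the ring to the V1 stalk, lay at the threshold. It was at 230.3 and 298 CPM in BFP-negative and 367 and 384 CPM in BFP-positive libraries, without overlap (log2 fold change 0.51, SE 0.15, edgeR adjusted p = 0.0516). It passed without BFP-negative replicate 2 (0.72, edgeR adjusted p = 0.00460), in DESeq2 (0.51, adjusted p = 0.00889) and in limma-voom (0.52, adjusted p = 0.0334). With BFP-negative replicate 1 left out it did not, at 0.34 (edgeR adjusted p = 0.198). The subunit that anchors the pump in the membrane exists in several isoforms, and the isoform among the 45 genes, Atp6v0a1, was the least abundant V-ATPase member per length (mean log2 RPKM 2.99). It was at 27.3 and 36.7 CPM against 27.7 and 37.8 CPM (log2 fold change 0.03, SE 0.25). The other isoforms expressed here were higher per length, with Atp6v0a2 at a mean log2 RPKM of 4.26 and Tcirg1 at 6.16, and neither passed (log2 fold changes 0.43, SE 0.17 and 0.08, SE 0.14).

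In the V1 sector, Atp6v1a and Atp6v1b2 form the catalytic head. Atp6v1a was at 125 and 143 CPM against 139 and 157 CPM (log2 fold change 0.15, SE 0.15). Atp6v1b2 was at 102 and 110.3 CPM against 123 and 166 CPM and did not pass (log2 fold change 0.45, SE 0.17, edgeR adjusted p = 0.138), a value that fell to 0.22 without BFP-positive replicate 2. The stalk and regulatory subunits Atp6v1c1, Atp6v1d, Atp6v1e1, Atp6v1f and Atp6v1h had log2 fold changes of 0.27, 0.02, -0.20, -0.04 and 0.00, with SE of 0.11 to 0.16. Atp6v1f was the most abundant V1 gene per length (mean log2 RPKM 9.96), at 628 and 657 CPM against 617 and 630.4 CPM. Of the accessory proteins, Atp6ap1 was at 636 and 680.0 CPM against 626 and 683 CPM, and Atp6ap2, also known as the prorenin receptor, at 409 and 417 CPM against 408 and 440.2 CPM. Their intervals were -0.26 to 0.25 and -0.22 to 0.30. Of 11 further subunit isoforms, 4 had enough counts to be tested and 0 of them passed, with 1 (Atp6v0a2) at an unadjusted p under 0.05 and 0 called by DESeq2 or limma-voom. Counts of 0 in every library were found for 5 of the 11, namely Atp6v0a4, Atp6v0d2, Atp6v0e2, Atp6v1b1 and Atp6v1e2. A count of 0 allows up to 3 counts, worth 0.237 to 0.258 CPM in these libraries, for counting error only.

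**Figure D4:**
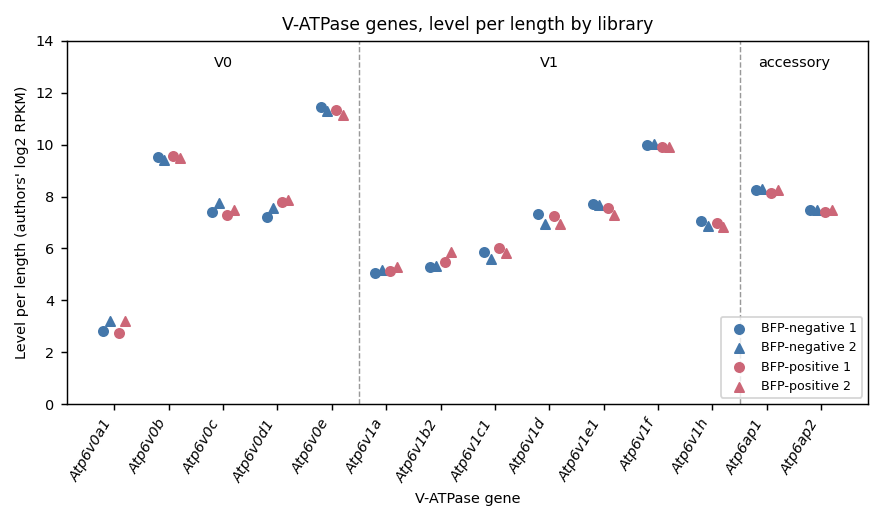
Level per length of the 14 V-ATPase members (x axis, by sector) in each library (y axis, authors' log2 RPKM); blue marks BFP-negative and red BFP-positive libraries, circles replicate 1 and triangles replicate 2. Genes differ from a mean of 2.99 (Atp6v0a1) to 11.30 (Atp6v0e), and the libraries of a gene differ far less. Groups can still stand apart. Atp6v0d1 lies at 7.20 and 7.54 in BFP-negative and at 7.80 and 7.85 in BFP-positive libraries. Atp6v1e1 goes the other way, at 7.71 and 7.68 against 7.55 and 7.30.

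Other lysosomal genes, listed by function from textbook knowledge but with earlier results of these data known, were counted by list. Of 31 tested further hydrolases and membrane proteins, 6 rose and 1 fell, a share of 19.4% higher and 3.23% lower. Of all genes tested, 7.60% rose and 3.51% fell. Among those that rose were the lipid amidase gene Naaa, the acid phosphatase gene Acp5, the lysozyme gene Lyz2 and Gpnmb. Naaa was at 94.5 and 104 CPM against 173 and 227 CPM (log2 fold change 1.01, SE 0.17, edgeR adjusted p = 0.00363). Gpnmb had 0 counts in both BFP-negative libraries and 20 and 30 in the BFP-positive ones, and its call was lost when any 1 library was left out (edgeR adjusted p = 0.0657 to 0.143). Of 12 tested cathepsins and related proteases and reductases 6 rose, namely Ctsa, Ctsh, Ctss, Ctsz, Lgmn and Ifi30, and 0 fell. The share that rose was 50%, compared with the 7.60% of all genes tested, and the median log2 fold change was 0.80.

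Genes that deliver and place lysosomal proteins did not pass in edgeR, where 11.1% of all genes tested passed. At that share, lists of this size would hold only a few calls. Over all genes tested DESeq2 called 1036 higher and 561 lower, and limma-voom 918 and 453. The share of all genes at an unadjusted p under 0.05 is not given here. Of 24 tested genes of the mannose 6-phosphate and sorting machinery, 0 passed in edgeR and in limma-voom and 1 in DESeq2, with 4 at an unadjusted p under 0.05. Of 15 tested Ragulator, Rag and folliculin genes, which tether the growth kinase mTOR to the lysosome, 0 passed in edgeR, DESeq2 or limma-voom, with 1 at an unadjusted p under 0.05. Of 19 tested autophagy genes 0 passed in these 3 tools, with 5 at an unadjusted p under 0.05. The medians of these 3 lists were 0.08, 0.07 and 0.03 on the log2 scale.

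**Figure D5:**
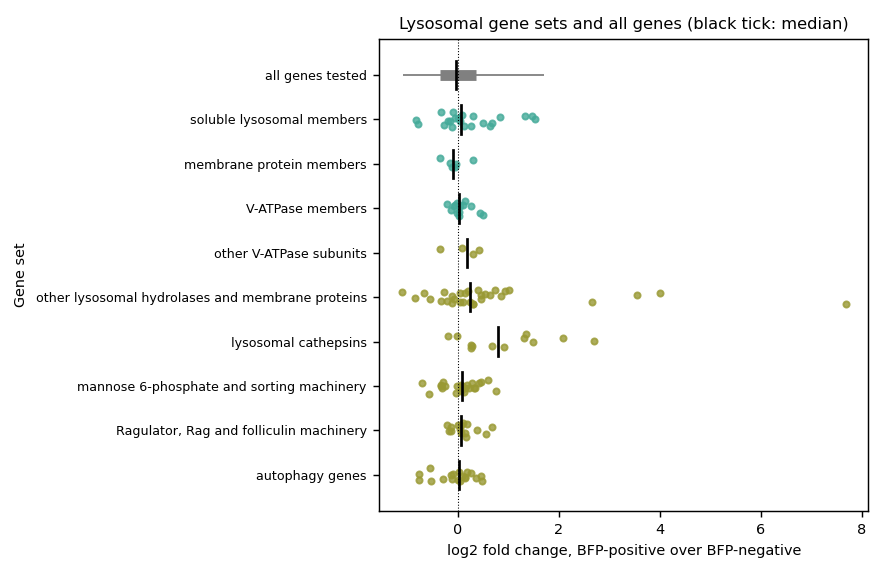
Log2 fold change (x axis) of the genes in each lysosomal set (y axis, 1 point per tested gene, black tick at the median); the MiT/TFE factors are not drawn. For all genes tested the thick bar spans the 25th to 75th and the thin bar the 5th to 95th percentile (-1.07 to 1.71), and the point farthest to the right is Gpnmb, whose fold change is fitted against counts of 0 and is no measured size; the V-ATPase points lie from -0.20 to 0.51.

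Markers of other cell types moved beside these genes. Of all genes tested, 7.60% rose and 3.51% fell. Of 16 monocyte and macrophage markers, 11 were tested, 5 rose (Csf1r, Cd14, Fcgr1, Ccr2 and Lyz2) and 2 fell (Adgre1 and Apoe). Lyz2 is also in the hydrolase list above, as Naaa of the conventional dendritic cell list is. The monocyte and macrophage markers summed to 375 and 441 CPM in BFP-negative and 653 and 681 CPM in BFP-positive libraries. Cd68, which did not pass, made up 248.5 and 277 CPM against 273 and 292 CPM of these. Without Cd68 the sums were 127 and 165 CPM against 380 and 389 CPM. Mertk, C1qa, Vcan and Marco, which also stand in that list, had 0 counts in every library. Of 12 conventional dendritic cell markers, 11 were tested, 4 rose and 1 fell, with sums of 759.9 and 753 CPM against 992 and 1046 CPM. Without Id2, the most abundant of them, the sums were 272 and 334 CPM against 483 and 583.5 CPM. Of 12 pDC markers 3 rose and 4 fell, with sums of 24480 and 29160 CPM against 20930 and 20140 CPM. Most of that sum was Ly6d, which fell, and the other 11 markers summed to 7194 and 8206 CPM against 7322 and 7566 CPM, with overlapping groups. Of 9 B cell and plasma cell markers, 7 were tested, 0 rose and 4 fell, with sums of 2696 and 2658 CPM against 1852 and 1681 CPM. Xbp1, which fell, made up 2561 and 2517 CPM against 1751 and 1578 CPM of these, and the other 8 markers summed to 135 and 141 CPM against 101 and 103 CPM. Of 9 neutrophil, mast cell and basophil markers, 4 were tested and 0 passed, with sums of 8.60 and 24.8 CPM against 14.6 and 32.4 CPM. Of 8 T cell and NK cell markers, 4 were tested, 0 rose and 1 (Cd8b1) fell. They summed to 494 and 483 CPM against 282 and 262 CPM. Cd8b1 made up 472 and 475 CPM against 273 and 243.5 CPM of these. The other T cell and NK cell markers summed to 21.5 and 8.20 CPM against 9.53 and 18.6 CPM, with overlapping groups. The part of any of these cell types in the rise of Gm2a, Hexa, Psap, Npc2, Man2b1 and Arsb or in the fall of Gaa and Neu1 was not tested.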

How the data were processed

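RNA-seq of 4 libraries was analysed, 2 per group by the titles. RNA was isolated on RNeasy columns and copied with SMART-Seq chemistry, per the labels' protocols; neither strand nor molecule of origin is marked. The authors deposited a table of raw gene counts and, for each library, log2 RPKM values (adjusted for gene length and depth). GRCm38, mm10, Subread, featureCounts and limma appear in the submitters' processing notes; versions, strand and multi-mapping settings are not given in the sources used here. For genes of at least 100 counts the deposited log2 RPKM differed from log2 of count over library total by a constant per gene (largest deviation 0.00176).

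Genes were kept by filterByExpr (minimum count 10, minimum total 15), leaving 11706 of 27179 genes. Testing used quasi-likelihood in edgeR 4.0.16 under R 4.3.3 (TMM, a model of group alone, 2 residual df before pooling, two-sided, Benjamini-Hochberg over all genes tested). The SE is the size of the log2 fold change divided by the square root of F, and the 95% intervals use the test's t distribution. DESeq2 1.42.0 and limma 3.58.1 were alternatives; the fits were tested on simulated data. Replicates were separate libraries by their counts (chi-square per degree of freedom 19.5 and 15.2). Every member is named; values per library are given for members that passed and for abundant ones of each role. Values of some further genes of the lists are not reported here. The members and lists were chosen with earlier results of these data known. Positions and promoters are from RefSeq on GRCm38.p6, exon overlaps from GENCODE.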

Additional observations from a re-analysis of the deposited data

How the results depend on the processing

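The 8 lysosomal genes that passed kept their direction under all 14 alternatives, and Gm2a, Hexa, Npc2, Man2b1 and Gaa also kept their call in all 14. The number that rose was 5 to 9 under the alternatives other than leaving out a library and 5 to 7 with 1 library left out; the number that fell was 2 or 3 and 1 to 2. Of the 37 genes that did not pass, 20 changed sign under at least 1 alternative. Over all genes tested, 559 to 921 rose and 245 to 408 fell with 1 library left out, the 559 when BFP-positive replicate 2 was omitted and the 245 when BFP-positive replicate 1 was. Leaving out a library leaves 1 in that group, which is then assumed to vary like the other group. By library totals alone 813 rose and 574 fell. Same-numbered libraries share a title code of unknown meaning, and their deviations from the group means correlated at 0.0594 across genes. That value cannot exclude a pairing, because a shared source may affect only some genes. The main model used group alone, and whether the libraries were paired is not known. With the replicate block in edgeR 1140 genes rose and 760 fell, among them 9 and 2 of the 45, and with the replicate block in limma-voom 1193 and 826, among them 9 and 3. The added genes under the edgeR block were Ppt1, Atp6v0d1 and Atp6v1b2, and the limma-voom block also added Scarb2 as lower (-0.35, adjusted p = 0.0464), so that 1 of 6 membrane proteins and 2 of 14 V-ATPase genes passed there. The cause of these shifts was not tested. Mitf had the fewest counts of the 45 genes, 20 to 32 per library, and the widest interval.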
